A study of Mus musculus with 8 samples.

Results

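The growth hormone and IGF axis was followed through 10 liver genes, Ghr, Stat5a, Stat5b, Igf1, Igfals, Igfbp2, Socs2, Cish, Socs3 and Bcl6. They were chosen by gene symbol as regulators upstream of growth-hormone-dependent liver genes, and 19 of the 41174 probes of the array carried one of these symbols. RNA came from livers of AIM-/- (knockout) and AIM+/+ (wild-type) mice of C57Bl/6 background, and AIM is the secreted macrophage protein encoded by Cd5l. Each genotype was measured after 6, 12 and 20 weeks of high-fat diet (HFD) and on normal chow (0 weeks), with 1 one-colour Agilent array for each genotype and time, 8 arrays in all. The ages and sex of the mice, and whether an array held RNA of 1 animal or of several, are not stated in the labels.

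Growth hormone from the pituitary binds its receptor on hepatocytes, which activates the kinase JAK2 and the transcription factors STAT5A and STAT5B. STAT5 drives transcription of Igf1, the main source of circulating IGF1, and of Igfals, whose product holds IGF1 in a long-lived serum complex. It also drives Socs2 and Cish, whose products switch the receptor signal off again. In rodents the pulsatile male and the near-continuous female pattern of growth hormone secretion set the sex difference of many liver genes, and Bcl6 is a male-biased repressor that competes with STAT5 for DNA sites.

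STAT5 and BCL6 bind related palindromic DNA sequences, so the promoter windows of the genes were searched for the letters TTCNNNGAA, which read the same on both strands. RefSeq windows of 300 bases around an annotated transcription start (GRCm38.p6) were at hand for 9 of 10 genes, with no entry for Socs2. The letters occurred in 6 of 16 windows, belonging to 4 genes (Igfals, Socs3, Cish and Bcl6), against 8.3% of all 32851 windows. The stretches around the motifs are shown because these genes include the feedback genes and the repressor whose signals varied most. Capitals mark the motif.
Cish, chr9:107296639-107296688, plus strand: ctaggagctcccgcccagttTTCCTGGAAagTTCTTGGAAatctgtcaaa
Socs3, chr11:117969492-117969540, minus strand: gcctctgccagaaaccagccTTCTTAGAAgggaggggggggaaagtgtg
Igfals, chr17:24878153-24878201, plus strand: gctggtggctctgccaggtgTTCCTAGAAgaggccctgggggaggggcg
Bcl6, chr16:23988942-23988990, minus strand: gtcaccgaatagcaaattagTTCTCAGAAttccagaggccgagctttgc
Bcl6, second start, chr16:23981343-23981471, minus strand: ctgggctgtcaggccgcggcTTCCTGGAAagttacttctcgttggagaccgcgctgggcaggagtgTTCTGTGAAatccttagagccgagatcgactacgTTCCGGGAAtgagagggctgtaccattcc
In Cish the first motif began at the annotated start and the next 11 bases after it. Bcl6 held 1 motif beginning 118 bases before one start and 3 beginning 168, 122 and 88 bases before another, and Socs3 held 1 beginning 154 bases before its start. A further Igfals window held 1 motif. These matches describe letters only, and no binding was measured.

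Values are processed signals on the log2 scale minus each array's 75th percentile, here called scaled log2 signals, so 0 is the 75th percentile of that array. Numbers called signals alone are processed signals before this step, on arrays whose 75th percentiles ran from 234.1 to 331.9. The scanner software marked 18586 to 21119 probes of an array as well above background, and tests covered 15338 genes. The targeted gene Cd5l had signals of 90.7, 139.5, 171.3 and 149.5 in knockout livers at 0, 6, 12 and 20 weeks, against 10540, 19980, 30200 and 23800 in wild-type livers. All arrays of a genotype shared 1 slide, so genotype and slide cannot be told apart, whereas diet was compared within slides. The Y-linked Ddx3y had signals of 5.33 and 6.23 on the knockout and wild-type 20-week arrays and at least 866.1 on the other 6, while 1 Xist probe gave 4312 and 4434 at 20 weeks and at most 14.2 elsewhere. Sex and the 20-week time therefore cannot be told apart, and comparisons of diet with chow are given first from the 6- and 12-week arrays. All 8 measured hepatocyte markers were well above background on every array.

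Across the 8 arrays, Socs2, Cish, Bcl6, Socs3, Igfbp2 and Igfals each spanned at least 4-fold, 6 of 10 genes against a background of 14.3% of all genes tested. Ghr and Stat5b spanned less than 2-fold, and 8 of 10 reached 2-fold (background 39%). Every one of the 10 genes was well above background on all 8 arrays with the probe that stands for it, which was the probe of highest mean.

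**Figure D1:**
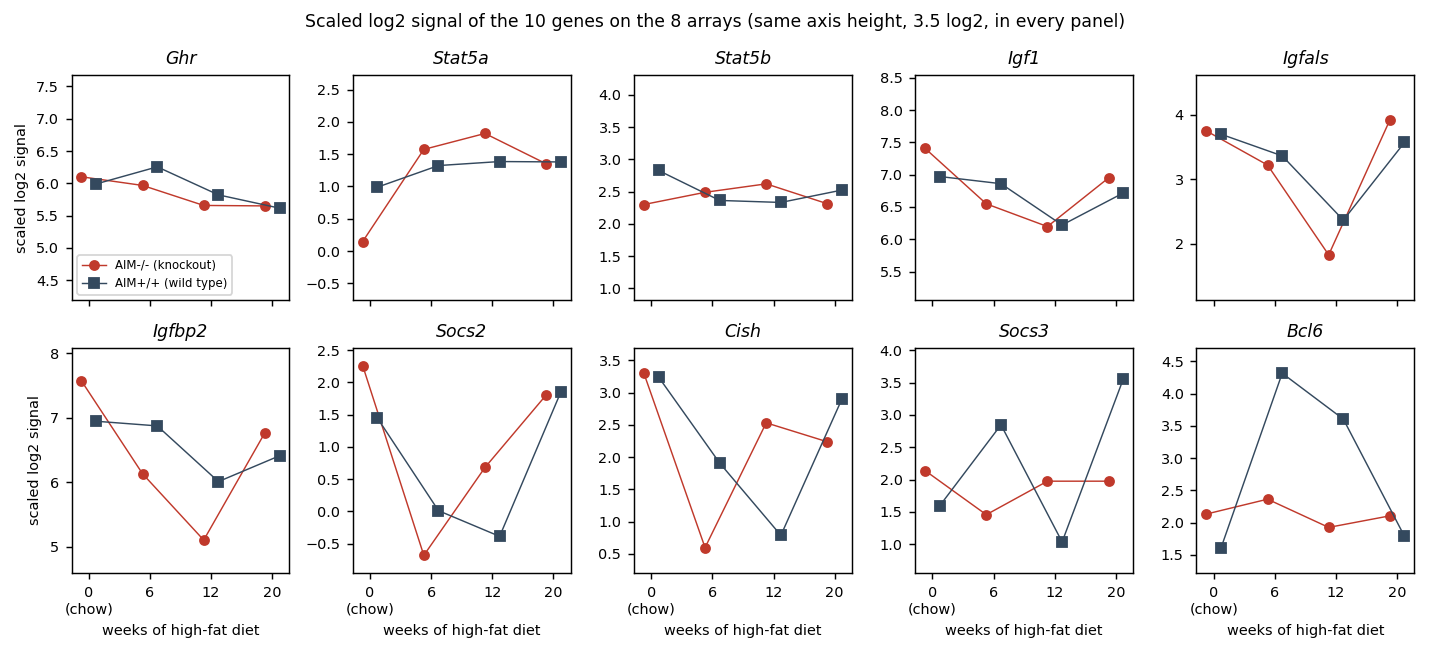
Scaled log2 signal (vertical axis) of the 10 genes against weeks of high-fat diet (horizontal axis), 1 point per array, knockout as red circles and wild type as dark squares, with the same axis height in every panel. Igf1, Igfals, Igfbp2, Socs2 and Cish are lower at 6 and 12 weeks than on chow in both genotypes, Stat5a is higher, and Bcl6 stands out on the wild-type arrays at 6 and 12 weeks.

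Ghr, the growth hormone receptor, varied little on its main probe. Its main probe (chr15:3268107-3268166, on mm8 as all probe positions here) gave 6.10, 5.97, 5.66 and 5.65 in knockout livers at 0, 6, 12 and 20 weeks, against 5.99, 6.25, 5.82 and 5.62 in wild-type livers. The exon or UTR under each probe was not analysed here. The whole span was 0.64, and both 20-week values lay below the other 6, as for 10.3% of all genes. In the knockout this rested on 5.65 at 20 weeks against 5.657 at 12 weeks. The mean of 6 and 12 weeks differed from chow by -0.12 (SE 0.13, 95% confidence interval -0.46 to 0.22, adjusted p = 0.628 in limma).

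Probes for other Ghr transcripts had larger diet differences. The array carried 5 Ghr probes, 3 for NM_010284 and 1 each for the cDNA clones AK034547 and AK053579. The AK034547 probe (chr15:3275624-3275683) gave 1.20, 0.45, -0.39 and -0.24 in knockout livers, against 0.97, 0.93, 0.09 and -0.05 in wild-type livers. The AK053579 probe (chr15:3295320-3295379) gave 3.69, 3.08, 2.18 and 2.36 in knockout livers and 3.38, 2.98, 2.53 and 2.68 in wild-type livers. On both probes all 6 diet values lay below both chow values. All diet weeks minus chow came to -0.95 (SE 0.18, adjusted p = 0.0704) and -0.90 (SE 0.18, adjusted p = 0.0733) in a limma fit over probes, against -0.22 to -0.30 for the 3 NM_010284 probes. Neither passed the threshold of 0.05, and the difference between probes was not tested.

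**Figure D2:**
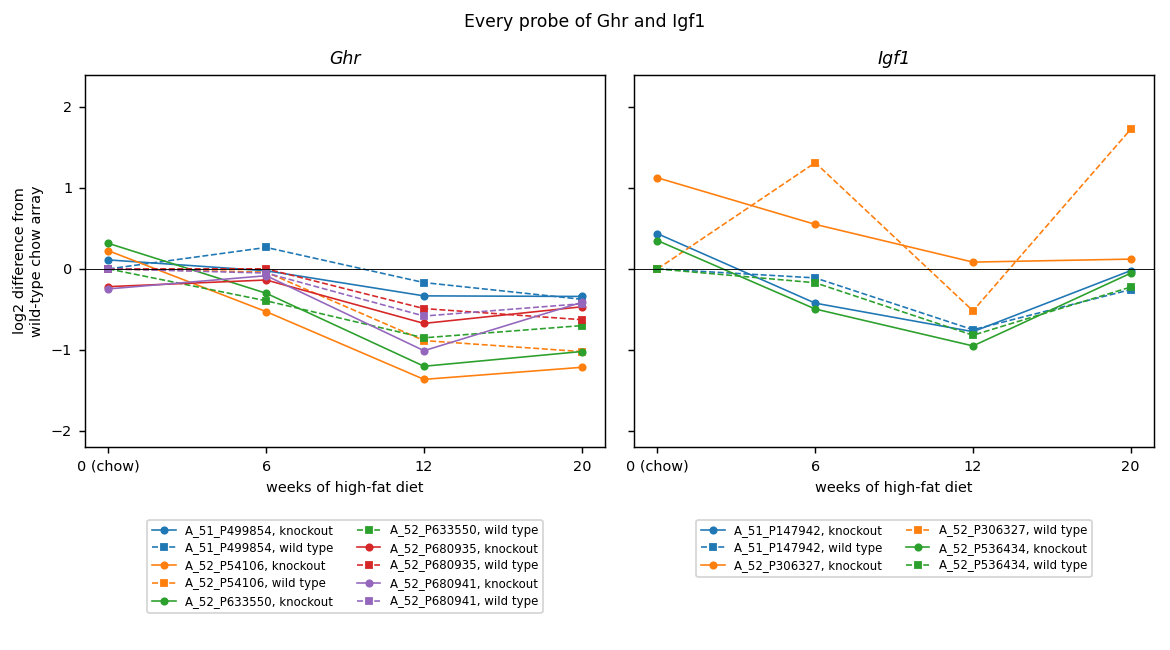
Log2 difference from the wild-type chow array (vertical axis) for every Ghr probe (left) and Igf1 probe (right) against weeks of high-fat diet, 1 point per array, knockout as solid lines with circles and wild type as dashed lines with squares. The AK034547 and AK053579 probes (A_52_P54106 and A_52_P633550) of Ghr reach lower than the NM_010284 probes, and the Igf1 probe A_52_P306327 departs from the other Igf1 probes.

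Stat5a and Stat5b are neighbouring genes for the paralogous transcription factors that carry the receptor's signal. On their brightest probes they lay on opposite sides of chow on the wild-type diet arrays, a difference that was not tested. Stat5a (chr11:100700920-100700979) gave 0.15, 1.57, 1.82 and 1.35 in knockout livers at 0, 6, 12 and 20 weeks, against 0.99, 1.32, 1.39 and 1.38 in wild-type livers. All 6 diet values lay above both chow values, and the knockout chow array was the lowest of the 8. At 6 and 12 weeks together Stat5a was 0.96 above chow (SE 0.29, 1.94-fold, adjusted p = 0.152), short of the threshold.

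The brightest of 3 Stat5b probes (chr11:100596875-100596934) gave 2.30, 2.49, 2.62 and 2.31 in knockout livers and 2.83, 2.36, 2.33 and 2.53 in wild-type livers. As for Stat5a, the knockout chow array was the lowest of the 8. Knockout minus wild-type differences of Stat5a were -0.84, 0.25, 0.43 and -0.03 at 0, 6, 12 and 20 weeks. Those of Stat5b had the same signs (-0.53, 0.13, 0.29 and -0.21). For Stat5b the 3 knockout diet arrays lay above chow by 0.19, 0.32 and 0.01, and the wild-type differences from chow were -0.46, -0.49 and -0.30. The interaction of genotype with diet was 0.59 for Stat5b (SE 0.28, unadjusted p = 0.0767, adjusted p = 1 in limma). For Stat5a the diet arrays were 1.43, 1.67 and 1.21 above chow in the knockout and 0.33, 0.40 and 0.39 above chow in the wild type, an interaction of 1.06 (SE 0.31, 95% confidence interval 0.30 to 1.82, unadjusted p = 0.0145, adjusted p = 0.912). None of the 10 genes, and 0% of all genes tested, passed for the interaction, where 680 genes (4.43%) had an unadjusted p under 0.05. These estimates rest on 1 chow array per genotype. Both dimmer Stat5b probes, well above background on 4 and 5 of 8 arrays, did not keep the wild-type side on every array. In the wild type A_51_P281938 differed from chow by -0.76, -0.56 and 0.01 and A_52_P663027 by 1.26, -1.56 and -1.17. In the knockout their differences were 0.09, 0.12 and 0.30 for A_51_P281938 and 0.97, 0.45 and 1.47 for A_52_P663027. Their interaction estimates were 0.61 and 1.45.

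The STAT5 target genes of the IGF1 complex were lower at 6 and 12 weeks than on chow, without passing the adjusted threshold. Igf1 (chr10:87360570-87360629) gave 7.41, 6.55, 6.20 and 6.95 in knockout livers at 0, 6, 12 and 20 weeks, against 6.97, 6.86, 6.22 and 6.72 in wild-type livers. Both chow arrays were higher than all 6 diet arrays, and both 12-week arrays were the lowest. This probe was printed in 10 spots per array, whose signals varied by 140 to 880 (SD) around array means of 20670 to 48110. The 6- and 12-week arrays were lower than chow by a difference of -0.73 (SE 0.18, 1.66-fold, adjusted p = 0.121).

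A further Igf1 probe, A_52_P536434, gave a similar difference of -0.78 (adjusted p = 0.115 in the limma fit over probes). The third, for the cDNA clone AK050118, gave -0.21 (SE 0.60), and its knockout minus wild-type differences were 1.12, -0.76, 0.60 and -1.60 at 0, 6, 12 and 20 weeks. The Igf1 probes thus disagreed, and the values above are those of the brightest.

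Igfals, the acid-labile subunit of the circulating IGF1 complex, gave 3.75, 3.22, 1.83 and 3.91 in knockout livers, against 3.70, 3.36, 2.36 and 3.57 in wild-type livers (probe chr17:24608906-24608965). Both 12-week arrays were the lowest, and the 20-week arrays lay on either side of both chow arrays. The 6- and 12-week mean was below chow by a difference of -1.03 (SE 0.20, 2.04-fold, adjusted p = 0.0887). The 12-week arrays carried most of it, since without that pair the difference was -0.43 and without the 6-week pair -1.63. The call depended on the processing: the adjusted p was 0.0443 with normexp background correction and 0.0434 with an intensity trend in limma's variance prior.

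Igfbp2, a binding protein that keeps IGFs in smaller serum complexes, gave 7.57, 6.13, 5.10 and 6.76 in knockout livers and 6.94, 6.87, 6.01 and 6.41 in wild-type livers (probe chr1:72785310-72785369). Both chow arrays exceeded the 6 diet arrays, by as little as 0.07 at 6 weeks in the wild type. The knockout 12-week array was the lowest and the knockout chow array the highest, a span of 2.47. The difference of 6 and 12 weeks from chow was -1.23 (SE 0.38, 2.34-fold, adjusted p = 0.159).

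The feedback inhibitors Socs2 and Cish, both direct STAT5 targets, were lower at 6 and 12 weeks than on chow, with the minimum at a different week in each genotype. Socs2 (chr10:94842120-94842179) gave 2.26, -0.68, 0.68 and 1.80 in knockout livers at 0, 6, 12 and 20 weeks, against 1.45, 0.01, -0.39 and 1.85 in wild-type livers. All 4 arrays of 6 and 12 weeks lay below both chow and both 20-week arrays. The lowest array was that of 6 weeks for the knockout but that of 12 weeks for the wild type. The 6- and 12-week mean was below chow by a difference of -1.95 (SE 0.40, 3.86-fold, adjusted p = 0.0916). As with Igfals, the adjusted p passed with normexp (0.0486, difference -1.69) and with the intensity trend (0.0443). A second Socs2 probe was well above background only on the 20-week arrays, with signals of 61.9 in the knockout and 64 in the wild type.

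Cish (chr9:107159966-107160025) gave 3.30, 0.60, 2.53 and 2.24 in knockout livers, against 3.24, 1.91, 0.79 and 2.90 in wild-type livers. Its minima were on the same arrays as those of Socs2 (the knockout at 6 weeks, and at 12 weeks the wild type), and all 6 diet arrays lay below both chow arrays. The difference of 6 and 12 weeks from chow was -1.81 (SE 0.63, 3.51-fold, adjusted p = 0.19).

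Socs3, the inhibitor induced mainly by IL-6 type cytokines through STAT3, gave 2.14, 1.46, 1.97 and 1.97 in knockout livers, against 1.60, 2.85, 1.03 and 3.56 in wild-type livers (probe chr11:117782256-117782315). The knockout arrays stayed within 0.68 of one another, and the wild-type arrays held both the lowest and the highest value of the 8. Diet at 6 and 12 weeks differed from chow by -0.04 (SE 0.62, adjusted p = 0.979). Of 21 measured acute phase and IL-6 responsive genes, Lcn2 (lipocalin 2) rose at 6 and 12 weeks, by 3.66 on the log2 scale (SE 0.27, adjusted p = 0.0298), and the list's median difference was 0.

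Bcl6, the repressor of female-biased liver genes, stood apart on 2 arrays. It gave 2.13, 2.36, 1.93 and 2.11 in knockout livers, against 1.61, 4.31, 3.60 and 1.79 in wild-type livers (probe chr16:23880423-23880482). The wild-type arrays at 6 and 12 weeks exceeded the other 6, which lay between 1.61 and 2.36. The wild-type diet arrays were 2.70, 1.99 and 0.18 above chow, against 0.23, -0.21 and -0.03 in the knockout. The interaction of genotype with all diet weeks was -1.63 (SE 1.27, adjusted p = 1 in limma), and the 6- and 12-week mean differed from chow by 1.18 (SE 0.62, adjusted p = 0.332).

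Read together by group, 5 of 10 genes (Igf1, Igfals, Igfbp2, Socs2 and Cish) were lower on all 4 arrays of 6 and 12 weeks than on both chow arrays, against 13.2% of all genes tested. Stat5a was higher on all 4, 1 of 10 against 13.7%. Taking 6 weeks alone, 5 of 10 were below both chow arrays (background 18.3%) and 2 of 10, Stat5a and Bcl6, above both (background 21.4%). At 12 weeks alone, 6 of 10 were below, now with Ghr (background 33.3%), and Stat5a was above (background 28.1%). None of the 10 passed the adjusted threshold in limma, where 0.489% of all genes did. At an unadjusted p under 0.05 there were 6 of 10, against 22.1% of all genes. The median difference of the 10 genes was -0.43, beside -0.02 over all genes. With all 3 diet weeks against chow, Igf1, Igfbp2 and Cish were below both chow arrays on all 6 (3 of 10, background 10.6%) and Stat5a above (1 of 10, background 10.5%). In that comparison 0 of 10 passed (background 2.33%) and 5 of 10 had an unadjusted p under 0.05 (background 25.2%), and the smallest adjusted p was 0.12 for Igfals.

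Some other values moved with the diet comparison. The 8 measured hepatocyte markers had a median difference of -0.33 at 6 and 12 weeks from chow, with none higher. They were uneven: Alb, Apoa1, Ahsg and Ttr differed by -0.05, -0.10, -0.12 and -0.16. Hnf4a, Tat, Ass1 and Cps1 differed by -0.51, -0.90, -1.30 and -1.57. The summed signal of the 8 markers per array was 829700 to 1124000 in knockout livers and 858500 to 1030000 in wild-type livers, lowest at 12 weeks in both. Their part in the lower Igf1, Igfals, Igfbp2, Socs2 and Cish signals was not tested, and in whole liver fewer hepatocytes and less RNA per hepatocyte cannot be told apart. The 13 measured Kupffer cell and macrophage markers had a median difference of 0.40, with 11 of 13 higher and none past the threshold. Diet and age cannot be told apart, because the chow arrays stand at 0 weeks.

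**Figure D3:**
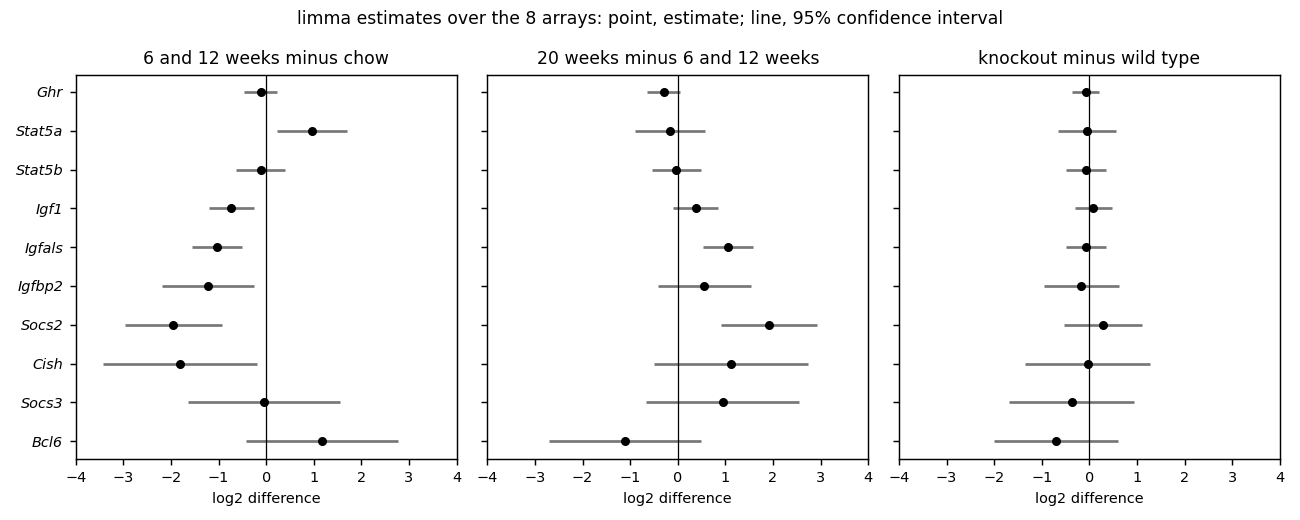
Limma estimates (points) with 95% confidence intervals (lines) for the 10 genes on a log2 axis, for 6 and 12 weeks minus chow, 20 weeks minus 6 and 12 weeks, and knockout minus wild type. The largest diet estimates are those of Socs2 (-1.95) and Cish (-1.81), and every genotype interval crosses 0.

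At 20 weeks, Igfals and Socs2 were higher than at 6 and 12 weeks. Igfals exceeded the 4 earlier diet arrays by 1.05 on average (SE 0.20, adjusted p = 0.194; 0.45 without the 12-week pair and 1.65 without the 6-week pair), and Socs2 by 1.92 (SE 0.40, adjusted p = 0.211). Ghr was lower on its main probe, with a difference of -0.29 (adjusted p = 0.42). On that probe the knockout arrays of 20 and 12 weeks were nearly equal, at 5.65 and 5.657. The other Ghr probes differed by -0.41, -0.17, -0.22 and 0.01, and their lowest array was the knockout at 12 weeks. Igfals, Socs2 and Ghr on its main probe were the 3 of 10 genes without overlap between the 20-week and the 6- and 12-week arrays. Of these, 2 were higher (background 11.2%) and 1 lower (background 14.8%). None of the 10 passed in limma (background 0.156%), and 2 of 10 had an unadjusted p under 0.05 (background 13.3%). Since both 20-week arrays carried Xist and lacked Ddx3y signal, sex and week cannot be told apart in these differences.

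Averaged over the 4 times, no gene of the axis separated knockout from wild-type livers. None of the 10 passed in limma (background 0.0326%), all had an adjusted p of 1, and none had an unadjusted p under 0.05 (background 5.59%). The estimate was -0.70 for Bcl6 (SE 0.51, 95% confidence interval -2.00 to 0.61), 0.29 for Socs2 (-0.54 to 1.11) and -0.37 for Socs3 (-1.68 to 0.93). It was bounded more narrowly for Igf1, at 0.08 (-0.30 to 0.47), and for Ghr, at -0.08 (-0.36 to 0.20). No gene had all 4 knockout arrays on one side of all 4 wild-type arrays (background 2.27%).

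Single weeks showed knockout minus wild-type differences that turned with time. On chow, 8 of 10 genes were higher in the knockout and none reached 2-fold (background 7.25%). The largest sizes were Stat5a at -0.84, Socs2 at 0.81 and Igfbp2 at 0.62. The chow arrays also differed in clock genes, with 9 of 16 at least 2-fold higher in the knockout and Dbp 2.79 higher, and in the fasting genes G6pc (-5.24) and Pdk4 (-3.83). The part of these states in the chow values of the growth hormone genes was not tested.

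At 6 weeks, 8 of 10 genes were lower in the knockout, with a median of -0.50 beside -0.05 over all genes. Bcl6 (-1.95), Socs3 (-1.39) and Cish (-1.31) were at least 2-fold lower, 3 of 10 against 3.51% of all genes. Socs2 (-0.69) and Igfbp2 (-0.74) did not reach 2-fold. Before scaling, the signals were 1553 in the knockout and 4659 in the wild type for Bcl6, 827.3 and 1684 for Socs3, and 456.7 and 878.1 for Cish. The 75th percentile was 301.7 on the knockout array and 234.1 on the wild-type array, so the scaled differences above are wider. On the same pair of arrays the clock gene Per1 differed by -1.99, and the median over the acute phase genes was -0.51.

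At 12 weeks Bcl6 was again lower in the knockout (-1.68), and it was the only one of the 10 at least 2-fold lower (background 2.02%). Cish (1.74) and Socs2 (1.07) were at least 2-fold higher (2 of 10, background 2.54%), the opposite side from 6 weeks, and Socs3 came to 0.94. At 20 weeks Socs3 alone was at least 2-fold apart, at -1.58 (background 2.17%), with signals of 1304 in the knockout and 3748 in the wild type. Each of these values is 1 array against 1 and has no replicate check.

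**Figure D4:**
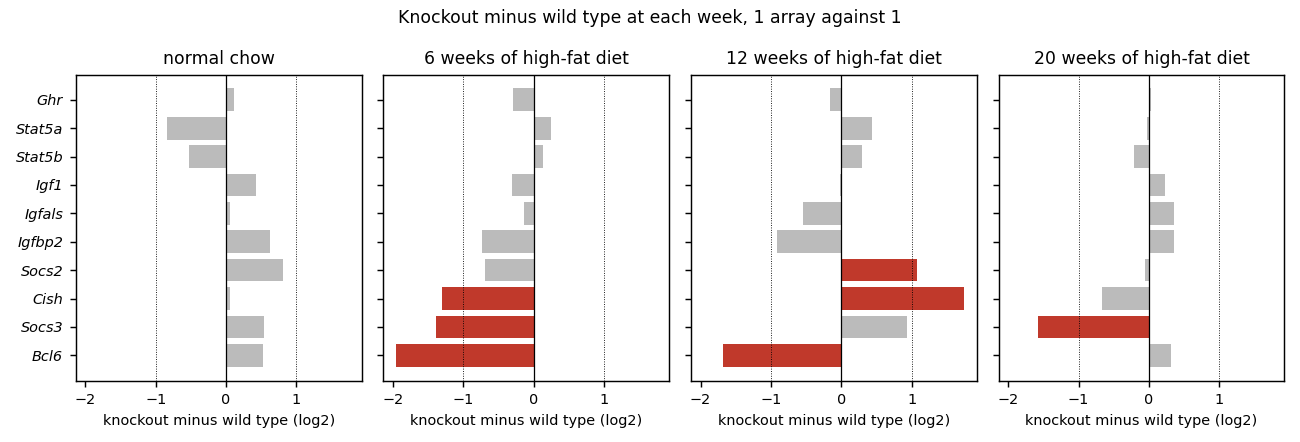
Knockout minus wild-type log2 difference (horizontal bars) of the 10 genes at each week, 1 array against 1, with bars of at least 2-fold in red and dotted lines at 2-fold. Bcl6 is at least 2-fold lower in the knockout at 6 and 12 weeks, Cish lies on opposite sides at 6 and 12 weeks, and Socs3 is lower at 6 and 20 weeks.

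Of 24 other measured genes in the receptor and JAK-STAT pathway none passed by genotype, diet, time or interaction. Their median at 6 and 12 weeks against chow was -0.09, and their spans over the arrays were not compared. Jak2, the receptor's kinase, had signals of 210.1, 192.6, 160.9 and 207.9 in knockout livers at 0, 6, 12 and 20 weeks, against 135.8, 127.1, 179.6 and 214.3 in wild-type livers. After scaling, its knockout minus wild-type log2 differences were 0.47, 0.23, -0.17 and -0.1. Stat3, the factor upstream of Socs3, differed by -1.29 between knockout and wild type at 6 weeks, where Socs3 and Bcl6 were also lower in the knockout.

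Among 12 other measured IGF ligands, receptors and binding proteins none passed either. Igfbp1, an insulin-repressed binding protein, had signals of 6805, 6811, 27460 and 20190 in knockout livers and 36540, 6470, 13770 and 53270 in wild-type livers. It differed by -2.58 on chow, on the arrays where G6pc and Pdk4 were lower in the knockout too. Igf1r, the IGF1 receptor, was well above background on 4 of 8 arrays.

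Transcription factors that respond to growth hormone were represented by 13 measured genes, and 2 of them rose over all diet weeks (2 of 13, against 2.33% of all genes). Tox rose by 1.16 (SE 0.17, adjusted p = 0.0497 in limma) and Trim24 by 0.99 (SE 0.12, adjusted p = 0.0411), higher than chow on 6 of 6 diet arrays. At 6 and 12 weeks alone neither passed, with 1.01 for Tox (adjusted p = 0.0822) and 0.61 for Trim24 (adjusted p = 0.0929). At 20 weeks against 6 and 12 weeks, Trim24 differed by 1.13 (adjusted p = 0.0874 in limma) and Tox by 0.46 (adjusted p = 0.383). The comparison of all diet weeks includes the 20-week arrays, where sex and week cannot be told apart. Cux2, a repressor found mainly in female mouse liver, had signals of 309.8 and 244 on the knockout and wild-type 20-week arrays and was not well above background on the other 6. It was at least 7.99-fold higher at 20 weeks than at 6 and 12 weeks (adjusted p = 0.0246). The bound sets the 20-week mean against the lowest signal well above background on each dim array.

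Sex-biased liver genes downstream of the growth hormone pattern differed most at 20 weeks. Of 25 measured female-biased genes, A1bg (at least 97.6-fold, adjusted p = 0.00131), Slc22a26 (at least 19.3-fold, adjusted p = 0.00258) and Hao2 (5.12 on the log2 scale, adjusted p = 0.0498, with 2 of 4 arrays of 6 and 12 weeks well above background) rose at 20 weeks in limma (3 of 25, against 0.156% of all genes), and all 25 had a positive difference. Of 21 measured male-biased genes, the organic anion transporter Slco1a1 fell at 20 weeks by at least 11.4-fold (adjusted p = 0.0347). The Xist and Ddx3y signals moved with these genes. Over all diet weeks against chow, the male-biased Slco1a1, Keg1 and Susd4 fell by 5.18, 2.42 and 1.95 on the log2 scale (adjusted p = 0.0245, 0.0467 and 0.0497), with 3 of 6 diet arrays well above background for Slco1a1. The female-biased Hao2, A1bg and Slc22a26 were called higher there and Cyp3a44, Cyp3a16 and Cyp3a41a lower. Thus 3 of 25 female-biased genes were called in each direction, against 2.33% of all genes in either. At 6 and 12 weeks against chow, Hao2, A1bg and Slc22a26 differed by 1.87, 0.24 and 0.38 (adjusted p = 0.112, 0.57 and 0.332 in limma). Slco1a1, Keg1 and Susd4 differed there by -3.29, -2.15 and -1.04 (adjusted p = 0.0589, 0.0706 and 0.154). From 6 and 12 weeks to 20 weeks these male-biased genes differed by a further -5.69, -0.82 and -2.73. A1bg and Slc22a26 were well above background only on the 20-week arrays, where sex and week cannot be told apart. The called Cyp3a genes are near-identical copies, so their calls may not be separate.

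On arrays with Ddx3y signal, the lists departed from chow before 20 weeks too. The median of the female-biased genes relative to the wild-type chow array was -0.20, 0.79, 1.02 and 3.26 in knockout livers at 0, 6, 12 and 20 weeks, against 0, 0.07, 1.05 and 2.56 in wild-type livers. For the male-biased genes it was -0.02, -0.59, -1.21 and -2.03 in knockout livers, against 0, 0.05, -1.79 and -2.44 in wild-type livers. At 6 weeks only the knockout array departed from chow by more than 0.5 in either list. At 6 and 12 weeks against chow the medians were 0.38 and -1.04, and 1 gene across both lists passed, the female-biased Cyp3a16, which fell by 1.79 (SE 0.19, adjusted p = 0.0451).

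Among sex-biased genes well above background on both arrays of a week, the widest differences between genotypes were at 6 weeks. Cyp2b9, a female-biased cytochrome P450, had signals of 493.2, 11300, 14870 and 45220 in knockout livers and 641.5, 59.4, 18170 and 42060 in wild-type livers. Hsd3b5, a male-biased steroid dehydrogenase, had 7436, 153.9, 7.84 and 30 in knockout livers and 14980, 9996, 8.69 and 17.2 in wild-type livers. At 6 weeks 6 of 25 female-biased genes were at least 2-fold higher in the knockout (background 3.06%) and 8 of 21 male-biased genes at least 2-fold lower (background 3.51%), on the arrays where Bcl6 differed by -1.95. In the opposite directions, 1 female-biased gene was at least 2-fold lower (Lifr, -1.56) and 2 male-biased genes at least 2-fold higher (Elovl3, 1.10, and Serpina12, 1.37, not well above background in the wild type). Among the 6 female-biased genes, Cyp2b9, Cyp2b13 and Cyp2b10 (7.2, 7.16 and 4.02) belong to 1 gene family, so they may not count separately. Cyp2b13 and Cyp2b10 were not well above background in the wild type, nor were the male-biased Moxd1 and Scara5 in the knockout. On that knockout array Ddx3y had a signal of 1098, while an Xist probe other than the one above gave 164.9 and was well above background. The remaining Xist probes gave 6.48, 6.39 and 6.70 on the same array, none well above background. The probe with the signal of 164.9 gave 66.1 on the wild-type array of 12 weeks. It gave 891.8 and 903 on the knockout and wild-type arrays of 20 weeks. Its part in the 6-week values was not tested. At 12 weeks Bcl6 differed by -1.68, while 0 of 25 female-biased genes were 2-fold higher (background 2.54%), 2 were 2-fold lower and 1 of 21 male-biased genes was 2-fold lower (background 2.02%).

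**Figure D5:**
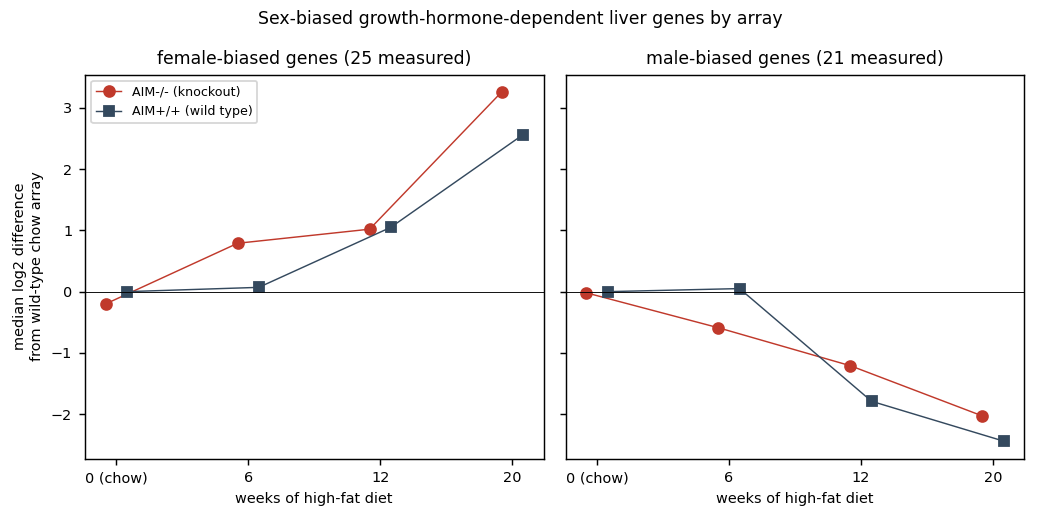
Median log2 difference from the wild-type chow array (vertical axis) of 25 female-biased and 21 male-biased growth-hormone-dependent liver genes, by weeks of high-fat diet, 1 point per array, knockout as red circles and wild type as dark squares. At 6 weeks the knockout array lies at 0.79 and -0.59, against 0.07 and 0.05 for the wild-type array, and at 12 weeks both arrays are shifted.

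Genes whose array profile came nearest to a member were sought among 9502 genes well above background on all arrays, by the root mean square difference of centred log2 signals over the 8 arrays. For Igfals these were Hpd (0.169), Cyp27a1 (0.174) and Cyp2c29 (0.192), all expressed in hepatocytes. For Igfbp2 they were Inmt (0.23), F7 (0.235) and Agxt (0.24). Socs2 lay nearest to Cyp3a16 (0.516), Cyp3a41a (0.608) and Got1 (0.629), and Cish to Cyp3a16 (0.572), Cdh1 (0.582) and Cyp3a41a (0.586). The Cyp3a genes are near-identical copies whose probes may share signal. Bcl6 was nearest to Dkc1 (0.397), Hs6st3 (0.541) and Lig3 (0.563), and Socs3 to Jchain (0.412), Pim3 (0.429) and Fam13c (0.431).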

How the data were processed

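Liver RNA was labelled with Cy3 and hybridised to 1-colour Agilent arrays (design 014868, coordinates on mm8 per the file headers). The deposited scanner files hold the processed signal intensity of each spot, with background already subtracted. The software was Agilent Feature Extraction, version 9.5 in the submitters' processing notes and 9.5.3.1 per the file headers. The deposited series values are log2 values, which differed from log2 processed signal minus the array's 75th percentile by a median of 0.000386 to 0.00213 per array. The raw mean and background intensity in the deposited files served only for the normexp alternative.

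From the processed intensity, 1639 control spots and those with an outlier mark (75 to 130 per array) were removed. Repeated spots were averaged within a probe, and each array's 75th percentile was subtracted on the log2 scale. Of 41174 probes, 21379 well above background on at least 2 arrays were kept, all 19 probes of the 10 genes among them. The probe of highest mean stood for a gene. Accessions of 24375 probes were matched to symbols through RefSeq (GRCm38.p6), used for names only beside the promoter windows.

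The linear models were fitted in limma 3.58.1 (R 4.3.3, with package data.table at 1.17.8), with genotype and week as terms (3 residual degrees of freedom), or genotype by diet for the interaction (4), and Benjamini-Hochberg adjustment over 15338 genes at 0.05. With 1 array per group, weeks and genotypes stand in for replicates, so p-values measure the spread among these 8 arrays and not between animals. In the interaction fit each genotype has 1 chow array, taken to vary as the other arrays do. At single weeks genes at least 2-fold apart were counted. A list is described by its counts and its median. The fits were tested on simulated data. The number of arrays limits the precision.

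The 10 genes and all lists were chosen with earlier results of these data known. Names were drawn from Cd5l, the sex chromosome genes, all probes of the 10 genes, list members past the threshold, up to 4 with the largest single-week differences, and for each gene spanning at least 2 on the log2 scale the 3 nearest genes. Other genes given with values (Jak2, Igf1r, Lifr, Serpina12) were chosen after the values were seen. The single hepatocyte markers were also named after that. Figures were drawn with matplotlib 3.10.9 in Python 3.11.15.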

Additional observations from a re-analysis of the deposited data

Results flagged for a closer look

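On its brightest probe, Stat5b lay above chow on all 3 diet arrays of the knockout (0.19, 0.32 and 0.01) and below chow on all 3 of the wild type (-0.46, -0.49 and -0.30). The difference between these mean diet differences was 0.59 on the log2 scale, and limma's interaction test gave an adjusted p of 1. The dimmer probes A_51_P281938 and A_52_P663027 did not keep the wild-type side on every array, at 0.01 on the 20-week and 1.26 on the 6-week array. For A_51_P281938 the departure was thus as small as 0.01. Their interaction estimates were 0.61 and 1.45, of the same sign as that of the brightest probe. All of these differences rest on 1 chow array per genotype, and the cause was not tested.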

How the results depend on the processing

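No paired analysis was possible because each genotype and week holds 1 array, all numbered replicate 1, beyond the week term that already sets both arrays of a week side by side in the genotype fit. Without that term 0 of 10 genes passed too. For the 10 genes, 21 of 520 estimates under an alternative had the opposite sign from the reported one, none past the threshold in either (Cish genotype, for one, was -0.04 and became 0.38 without the 6-week pair). With the deposited values all 50 estimates stayed on their side of the threshold. Those values are nearly the same quantity as the scaled log2 signals, so this setting could hardly give another result. Igfals and Socs2 passed at 6 and 12 weeks against chow in 2 alternatives, which gave 2 of 10 genes with normexp and 2 with an intensity trend, against 0. Over all genes, this comparison called 75 (55 higher, 20 lower), 386 with normexp (244 higher, 142 lower), 0 with no filter on dim probes (3862 at an unadjusted p under 0.05), 381 with the filter at 4 arrays and 572 with the trend, and 0 to 268 leaving out a pair of arrays of 1 week (1335 at an unadjusted p under 0.05 without the 12-week pair, 2928 without the 20-week pair). All diet weeks called 358, 693 with normexp, 233 with quantile normalization, 27 with no filter, 836 with the filter at 4 arrays, 1047 with the trend, and 0 to 522 leaving out a pair (2530 at an unadjusted p under 0.05 without the 12-week pair, 2928 without the 20-week pair). The 20-week comparison called 24 (17 higher, 7 lower), 55 with normexp, 7 with no filter, 6 with the filter at 4 arrays (1 higher, 5 lower), 42 with the trend (17 higher, 25 lower), and 3 to 19 leaving out a pair. Genotype called 5, and 1 leaving out any pair. The interaction called 0 (680 at an unadjusted p under 0.05), and 111 with no filter. The cause was not tested. With no filter the median of all genes shifted by up to -0.16, in the interaction. The Bcl6 genotype difference was -0.28 without the 6-week pair and -1.10 without the chow pair. The count of 6 genes without overlap between 6 and 12 weeks and chow was 7 at 6 weeks alone, 7 at 12 weeks alone and 4 with all diet weeks, alternatives chosen after seeing the data.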

Other observations

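Markers of other cell types were measured beside the growth hormone genes. At 6 and 12 weeks against chow the median log2 difference was 0.30 over 5 neutrophil markers, 0.47 over 10 T and NK cell markers, -0.64 over 4 B cell markers, 0.07 over 8 endothelial markers, 0.29 over 11 stellate cell and fibroblast markers and 0.04 over 7 cholangiocyte markers, with none past the threshold in limma. The 3 measured adipocyte markers had a median of 1.10, the 3 measured pancreas markers -0.19 and the 1 measured skeletal muscle marker -0.18. Between genotypes, all 5 neutrophil markers were lower in the knockout (median -0.41), and none passed.

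Some acute phase genes differed between the chow arrays. Of 21 measured, 12 were higher in the knockout, and the list's median was 0.37. Mt1 and Mt2, the metallothioneins, were 2.74 and 2.19 higher on the log2 scale in the knockout, Hamp (hepcidin) 2.13 higher and Saa2 (serum amyloid A) 1.11 higher, 1 array against 1.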
